A study of Homo sapiens with 15 samples.

Results

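6 keratin genes are described here across 5 groups of inhibitor-treated HT1080 cells: KRT80, KRT81, KRT8, KRT7, KRT18 and KRT19. They are 6 of the 60675 genes in the expression table and 6 of the 66 rows that carry a keratin symbol. They were selected by name, and the names were chosen from values measured in these same libraries, in which KRT80 had already been seen to differ between groups. The levels and fold changes of these 6 genes are therefore a description, no p-value is given for them, and nothing is read from whether they pass a test fitted over all genes.

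HT1080 is an established human fibrosarcoma cell line, that is, a connective tissue tumour line. RNA was sequenced from 15 libraries, with 3 replicates in each of 5 groups, and every library came from cells that had received an inhibitor. The 6CD1m line (KDAC6H216A) and the 6CD2m line (KDAC6H611A) carry substitutions in the catalytic domains of lysine deacetylase 6 (KDAC6, gene HDAC6), and both were given 1 µM Tubastatin A, a KDAC6 inhibitor, for 2 days. The 8CDm line (KDAC8H143A) carries a substitution that inactivates KDAC8 (gene HDAC8) and was given 5 µM PCI-34051, a KDAC8 inhibitor, for 2 days. Wild-type (WT) cells were given either 1 µM Tubastatin A or 5 µM PCI-34051 for 14 days. The mutations sit in the endogenous genes, so each line is an edited derivative of HT1080 with its own culture history. Between a mutant line and WT cells on the same inhibitor, the genotype and the length of treatment change together and cannot be told apart. Untreated cells are not analysed here.

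Keratins are the intermediate filament proteins of epithelial cells. A filament is built from pairs of 1 type I and 1 type II chain, so the chains of each type are needed together, and an unpaired chain is normally degraded. KRT8 (type II) and KRT18 (type I) form the pair of simple epithelia, KRT7 (type II) and KRT19 (type I) accompany them in glandular and ductal epithelia, KRT80 is a type II keratin of stratified epithelia found near desmosomes, and KRT81 is a type II keratin of the hair cortex. Cells of mesenchymal origin use the related filament protein vimentin (VIM), and many tumour lines of such origin also transcribe KRT8 and KRT18.

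All keratins share a coiled-coil rod, and the 6 genes were compared over their coding sequences in the GENCODE 29 transcripts on GRCh38. KRT80 matched KRT8 at 61.0% of aligned bases, KRT7 at 60.8% and KRT81 at 58.9%, while KRT8 and KRT7 matched each other at 72.9%. Among the 6 transcripts KRT80 had the longest, 3859 bases, of which 1359 (35.2%) were coding, against coding shares of 68.3% to 86.6% in the other 5. GC content of the 6 transcripts ran from 56.8% in KRT80 to 62.9% in KRT7, above the median of 48.7% over the 19381 tested genes with a reference transcript.

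Library totals ran from 10932455 to 19983710 counts on genes. Levels are given as CPM, a gene's counts relative to the TMM-scaled size of its library, and comparisons of level between genes use CPM per kb of transcript. Replicate 1 stood apart in several groups. The chi-square statistic per gene between replicate 1 and the other replicates ran from 16.6 to 46.1 in 6CD1m, WT Tubastatin A and WT PCI-34051, and from 7.24 to 10.3 in 6CD2m and 8CDm, against 2.63 to 7.21 between replicates 2 and 3 of any group. The counts of listed genes called are also given without replicate 1. Levels and fold changes of single genes rest on all 15 libraries unless stated.

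KRT80 separated the 5 groups. Its level in the 3 libraries of each group was 116, 126 and 116 CPM in 6CD2m, 58.6, 58.5 and 57.9 CPM in 6CD1m, 42.0, 45.3 and 47.9 CPM in 8CDm, 30.2, 32.0 and 35.0 CPM in WT Tubastatin A, and 16.9, 17.95 and 14.1 CPM in WT PCI-34051. Each 2-day mutant group lay above both 14-day WT groups, and the libraries of no 2 groups overlapped in any of the 10 pairs of groups. Such complete separation was found for 105 of the 19535 genes tested (0.537%), and KRT80 was named with its levels known, so nothing is read from that share. The group means were 119 ± 5.56 CPM in 6CD2m, 58.3 ± 0.392 in 6CD1m, 45.0 ± 2.97 in 8CDm, 32.4 ± 2.42 in WT Tubastatin A and 16.3 ± 1.98 in WT PCI-34051 (SD, n = 3). From the highest to the lowest group this was a 7.31-fold range, a log2 fold change of 2.87 with a standard error of 0.10. The reads behind these levels numbered 219 to 2480 per library. In all 15 libraries the deposited KRT80 value was a whole number to within 0.001, as an RSEM estimate is where no read is split between genes.

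**Figure D1:**
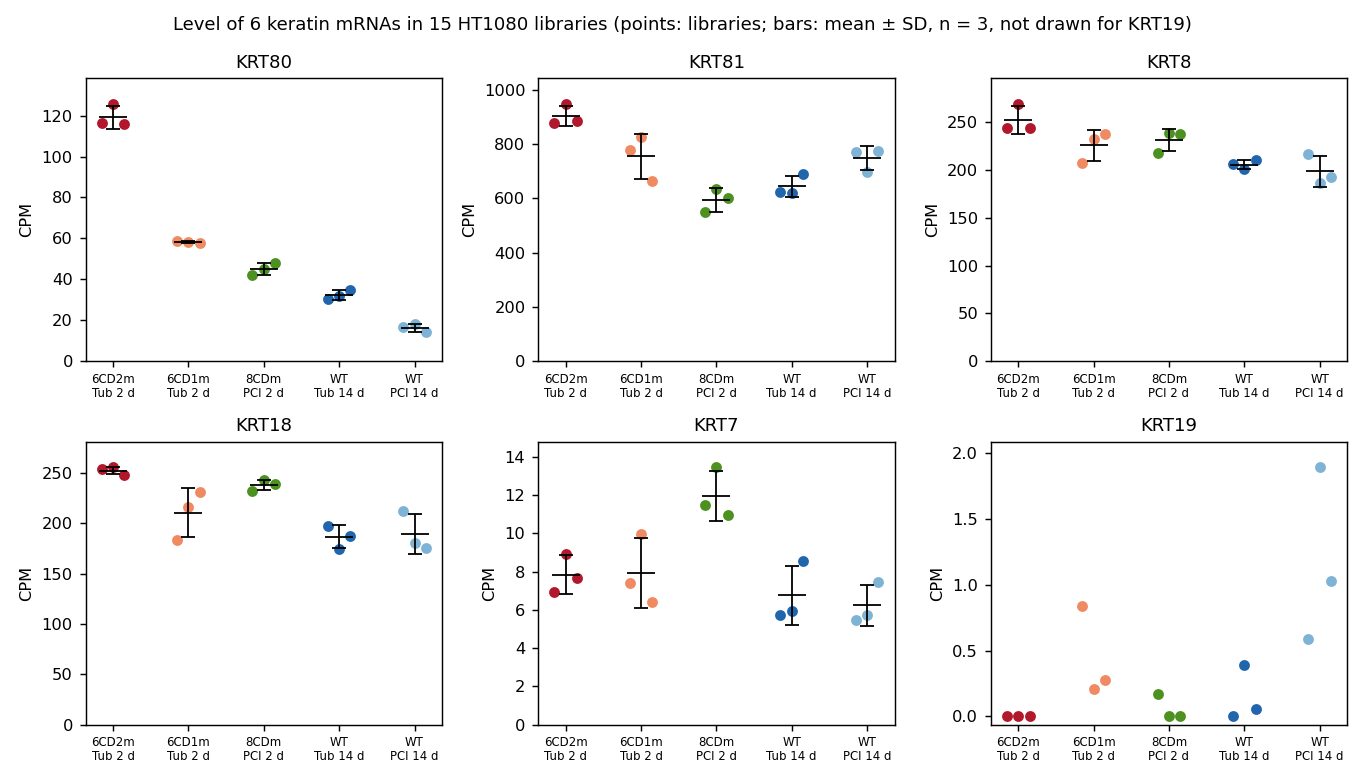
Level of each keratin in CPM (vertical axis, separate scale per panel) in the 5 groups (horizontal axis; Tub is Tubastatin A, PCI is PCI-34051, d is days). Points are libraries in the order of their replicate numbers, and bars give the mean ± SD of 3 libraries, left out for KRT19 because of its few counts. KRT80 falls into 5 separate groups between 14.1 and 126 CPM, whereas the KRT8 and KRT18 points lie between 175 and 269 CPM.

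KRT81 was the most abundant keratin. It read 878, 946 and 884 CPM in 6CD2m, 777, 824 and 662 CPM in 6CD1m, 548, 633 and 600 CPM in 8CDm, 624, 621 and 688 CPM in WT Tubastatin A, and 769, 696 and 775 CPM in WT PCI-34051. Only 6CD2m lay above every other group. The order of the other groups was WT PCI-34051 or 6CD1m, then WT Tubastatin A, then 8CDm, with 6CD1m overlapping both WT groups and WT Tubastatin A overlapping 8CDm. The highest and lowest group means, 903 ± 37.8 and 594 ± 43.2 CPM (SD, n = 3), differed by 1.52-fold. KRT81 has a near copy, KRT86, another hair keratin, which matched its coding sequence at 93.4% of aligned bases. KRT86 also spans KRT81 on the opposite strand. The deposited KRT81 and KRT86 values were whole in 0 of 15 libraries, and the copies KRT83, KRT85 and KRT86 together held 1.18% to 2.18% as many counts as KRT81. Adding them to KRT81 left its log2 fold changes at 0.49 for 6CD2m and -0.33 for 8CDm against WT cells on the same inhibitor.

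KRT8 and KRT18 lay close to each other in level and varied little in CPM. KRT8 read 244, 269 and 245 CPM in 6CD2m, 208, 233 and 238 CPM in 6CD1m, 218, 239 and 238 CPM in 8CDm, 206, 201 and 210 CPM in WT Tubastatin A, and 217, 187 and 192 CPM in WT PCI-34051. KRT18 read 254, 255 and 248 CPM in 6CD2m, 184, 216.2 and 231 CPM in 6CD1m, 232, 243 and 239 CPM in 8CDm, 198, 175 and 187 CPM in WT Tubastatin A, and 212, 180.5 and 175.5 CPM in WT PCI-34051. For both genes 6CD2m was the highest group, 8CDm lay above both WT groups, and the WT groups overlapped each other and 6CD1m. The 8CDm and 6CD1m libraries overlapped for KRT8 but not for KRT18. The ratio of KRT8 to KRT18 per kb ran from 0.691 to 0.845 over the 15 libraries, with a median of 0.760, so the partners of the simple epithelial pair stayed in a narrow proportion. Across the 15 libraries the log2 levels of the pair had a Pearson r of 0.93, those of KRT80 had an r of 0.84 with KRT8 and 0.74 with KRT18, and those of KRT81 and KRT7 had an r of -0.19. These correlations are descriptions, since libraries of a group share their treatment.

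Reads of KRT8 and KRT18 are shared with many processed pseudogenes, which are intronless copies of the mRNA inserted elsewhere in the genome. The table held 50 KRT8 and 67 KRT18 pseudogenes. Their counts amounted to 24.6% to 53.8% of those of KRT8 and to 6.39% to 32.0% of those of KRT18, and the values of both parent genes were whole in 0 of 15 libraries. Set against the KRT8 coding sequence, KRT8P14 matched it at 92.2% of 1428 aligned bases, and at 90.6% of the whole coding sequence. KRT8P14 was picked out after its values were seen, and its level did not follow that of KRT8. It stood at 76.2 ± 3.40 CPM in 8CDm against 33.1 ± 2.70 CPM in WT PCI-34051 (SD, n = 3), a log2 fold change of 1.20 ± 0.10 (SE, edgeR quasi-likelihood test, adjusted p = 4.7e-07), where KRT8 itself differed by 0.22. Against WT Tubastatin A it was 0.43 ± 0.10 higher in 6CD2m (adjusted p = 0.0034) and 0.59 ± 0.10 higher in 6CD1m (adjusted p = 0.0026), neither past the threshold of 0.001 used here.

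KRT7 and KRT19 were low. KRT7 read 6.93, 8.92 and 7.68 CPM in 6CD2m, 7.41, 9.97 and 6.41 CPM in 6CD1m, 11.5, 13.4 and 10.9 CPM in 8CDm, 5.75, 5.96 and 8.55 CPM in WT Tubastatin A, and 5.49, 5.75 and 7.47 CPM in WT PCI-34051. The 8CDm libraries lay above those of the other 4 groups, which overlapped one another. KRT7 values were whole in 0 of 15 libraries.

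KRT19 was near the limit of detection. It had 11, 30 and 16 counts in WT PCI-34051, 10, 3 and 4 counts in 6CD1m, 0, 6 and 1 counts in WT Tubastatin A, 3, 0 and 0 counts in 8CDm, and 0, 0 and 0 counts in 6CD2m. The WT PCI-34051 libraries lay above the 6CD2m, 8CDm and WT Tubastatin A libraries and overlapped those of 6CD1m, which in turn lay above 6CD2m and 8CDm. Taking 3 counts per library as the level that a count of 0 allows gave a floor of 0.166 CPM for 6CD2m. The mean KRT19 level was 7.08 times that floor in WT PCI-34051 and 2.68 times in 6CD1m. The 6CD1m mean rested mostly on replicate 1, at 0.842 CPM, with 0.211 and 0.279 CPM in replicates 2 and 3. In WT PCI-34051 the lowest library was replicate 1, at 0.587 CPM. These ratios are therefore not lower bounds. Its 57 counts in WT PCI-34051 against 3 in 8CDm gave a ratio of 20.7, with a 95% exact binomial interval of 6.74 to 103, and against 7 in WT Tubastatin A a ratio of 8.26 (3.76 to 21.5). The intervals cover counting error only and the floor that of counts of 0 only, and neither covers the spread between cultures.

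Per kb of transcript, KRT81 held 50.1% to 64.0% of the summed keratin level of a library, KRT18 17.9% to 26.2%, KRT8 14.4% to 18.3%, KRT80 0.583% to 3.90%, KRT7 0.477% to 1.21% and KRT19 at most 0.232%. The other 60 keratin genes together held 1.81% to 2.96%. KRT80 thus remained a minor keratin also in 6CD2m, where its share was 3.84% to 3.90%, against 0.583% to 0.792% in WT PCI-34051. Type II chains outweighed type I chains in every library, with a ratio of 2.73 to 4.34 and a median of 3.70. This excess lay with KRT81: the ratio of KRT7, KRT8 and KRT80 together to the type I chains was 0.777 to 0.968. The 8CDm libraries had the lowest overall ratios, 2.73 to 2.96, below the 3.09 to 4.34 of the other 12 libraries. VIM, at 1569 ± 85.9 to 2469 ± 132 CPM per kb (group means ± SD, n = 3), exceeded the summed keratins of 554 to 834 CPM per kb.

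**Figure D2:**
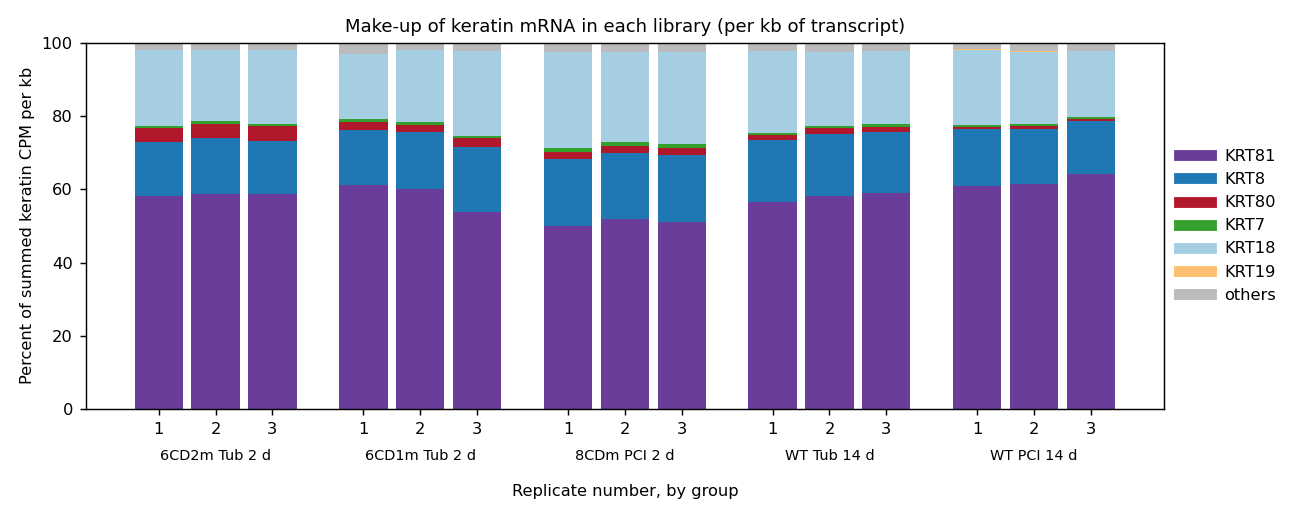
Share of each keratin in the summed keratin level of a library (vertical axis, percent of CPM per kb), with 1 bar per library, grouped by treatment along the horizontal axis (Tub is Tubastatin A, PCI is PCI-34051, d is days). The KRT81 share is lowest in the 8CDm bars (50.1% to 52.0%), and the KRT80 share is widest in the 6CD2m bars.

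The epithelial label of the keratins was set against other markers. Of 15 epithelial markers, EPCAM, CDH1 and CRB3 had at most 3 counts in every library, and only 7 of the 15 were high enough to be tested. The summed level of the 15 was 31.1 to 33.7 CPM in 6CD2m, 15.3 to 26.1 CPM in 6CD1m, 18.5 to 20.3 CPM in 8CDm, 13.1 to 17.5 CPM in WT Tubastatin A and 13.2 to 17.3 CPM in WT PCI-34051. In 6CD2m OCLN alone was 17.7 ± 1.36 CPM, against 5.966 ± 0.7745 in WT Tubastatin A and 5.275 ± 0.6331 in 6CD1m (SD, n = 3). GRHL2 went the other way, at 0.237 ± 0.139 CPM in 6CD2m against 1.97 ± 0.262 in 6CD1m. Of the 7 tested, these 2 were called between 6CD1m and 6CD2m (edgeR quasi-likelihood test, adjusted p = 1.6e-06 for OCLN and 4.7e-05 for GRHL2). The sum thus does not stand for each marker. The 13 fibroblast and mesenchymal markers summed to 3898 to 7315 CPM, and were lowest in 6CD2m, at 3898 to 4437 CPM. In bulk RNA, more cells with a transcript and more of it per cell cannot be told apart, and the part of such marker levels in the keratin differences was not tested. HDAC6 mRNA, which the substitutions do not delete and which therefore does not check the labels, was 13.1 ± 0.992 CPM in 6CD1m, 24.4 ± 1.27 in 6CD2m, 19.3 ± 2.404 in 8CDm, 25.7 ± 2.37 in WT Tubastatin A and 30.5 ± 3.46 in WT PCI-34051 (SD, n = 3). By the edgeR quasi-likelihood test it was lower in 6CD1m than in WT Tubastatin A (log2 fold change -0.97 ± 0.12 SE, adjusted p = 0.00024). It was also lower in 6CD1m than in 6CD2m (-0.90 ± 0.12, adjusted p = 5.4e-05) and in 8CDm than in WT PCI-34051 (-0.66 ± 0.12, adjusted p = 0.00064). Between 6CD2m and WT Tubastatin A the difference was -0.08 ± 0.12 (adjusted p = 0.68). HDAC8 mRNA lay between 15.5 ± 0.790 and 17.98 ± 1.54 CPM in the 5 groups.

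The first comparison asked how 6CD2m cells on Tubastatin A for 2 days differed from WT cells on Tubastatin A for 14 days. KRT80 was 3.68-fold higher in 6CD2m, a log2 fold change of 1.88 ± 0.10 (SE). KRT81 (0.49 ± 0.10), KRT18 (0.44 ± 0.10) and KRT8 (0.29 ± 0.09) were higher by smaller amounts without overlap between libraries, and KRT7 (0.22 ± 0.20) overlapped. The share of all genes without overlap was not counted for single pairs of groups. Nothing is therefore read from the lack of overlap of a keratin, here or in the other comparisons. With offsets for the GC content of each library the differences were 0.64 for KRT81, 0.58 for KRT18 and 0.44 for KRT8. With the pseudogenes added the differences were 0.35 for KRT18 and 0.26 for KRT8. Of all genes tested, 11.8% passed the threshold of an adjusted p under 0.001 (4.61% higher and 7.22% lower in 6CD2m).

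Around the keratins, 27 of 94 tested genes of 8 lists passed the same test, 11 higher and 16 lower in 6CD2m (edgeR quasi-likelihood test), with a median log2 fold change of -0.04 against -0.01 over all genes tested. The lists hold other keratins, epithelial and mesenchymal markers, junction and filament genes, keratin binding proteins and transcription factors known to act on keratin genes, and 175 genes in all. They were drawn up with earlier results of these data known, so their counts and p-values here and below are not independent of those results. Of 9 tested genes of the desmosome, the junction that anchors keratin filaments between cells, 3 rose and 2 fell. JUP (plakoglobin) rose from 3.03 ± 0.0784 to 19.4 ± 0.549 CPM (SD, n = 3), a log2 fold change of 2.68 ± 0.18 (adjusted p = 3.1e-08), and DSP (desmoplakin, the linker to keratin) rose by 0.93 ± 0.13 (adjusted p = 5.1e-05). The desmosomal cadherins moved the other way, with DSC2 falling from 3.21 ± 1.46 to 0.438 ± 0.187 CPM (log2 fold change -2.85 ± 0.53, adjusted p = 0.00071) and DSG2 from 99.2 ± 19.2 to 30.9 ± 4.35 CPM (-1.68 ± 0.23, adjusted p = 4.6e-05). Of 11 genes of the hemidesmosome, which anchors keratin to the matrix, 2 rose and 2 fell. ITGB4, its integrin chain, rose from 3.09 ± 0.447 to 12.3 ± 0.594 CPM (1.99 ± 0.18, adjusted p = 9.7e-07), and LAMA3, a chain of its laminin ligand, fell from 19.9 ± 1.49 to 1.19 ± 0.0801 CPM (-4.06 ± 0.17, adjusted p = 3e-10). Median log2 fold changes of protein-coding genes by autosome ran from -0.79 to 0.18 in this comparison. Whether a shift of a whole chromosome had a part in the change of any listed gene, here or below, was not tested.

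Of 18 transcription factors, 2 rose and 4 fell in 6CD2m. KLF4, a factor of epidermal differentiation, rose from 4.54 ± 0.562 to 27.8 ± 0.581 CPM (2.61 ± 0.19, adjusted p = 9.1e-08). ETS1 rose, whereas CEBPB, ETS2, FOSL1 and JUN fell. Of 12 other intermediate filament genes, SYNM (synemin) rose and VIM, LMNA, LMNB2 and SYNC fell, VIM by 0.65 on the log2 scale (SE 0.11, adjusted p = 0.0002). Of 21 keratin binding or modifying proteins, PRKCZ, an atypical protein kinase C, rose from 1.31 ± 0.222 to 7.81 ± 0.887 CPM (2.58 ± 0.27, adjusted p = 3.5e-06), DNAJB6 rose and STUB1 fell. FN1 (fibronectin) fell from 1214 ± 35.3 to 425 ± 53.0 CPM (-1.51 ± 0.22, adjusted p = 6.9e-05), with TWIST1 and VIM the other 2 of 11 mesenchymal markers to fall. OCLN was the 1 of 7 epithelial markers that rose. Without replicate 2 the count of 27 became 3, without replicate 3 it became 5, and without replicate 1 it was 35.

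**Figure D3:**
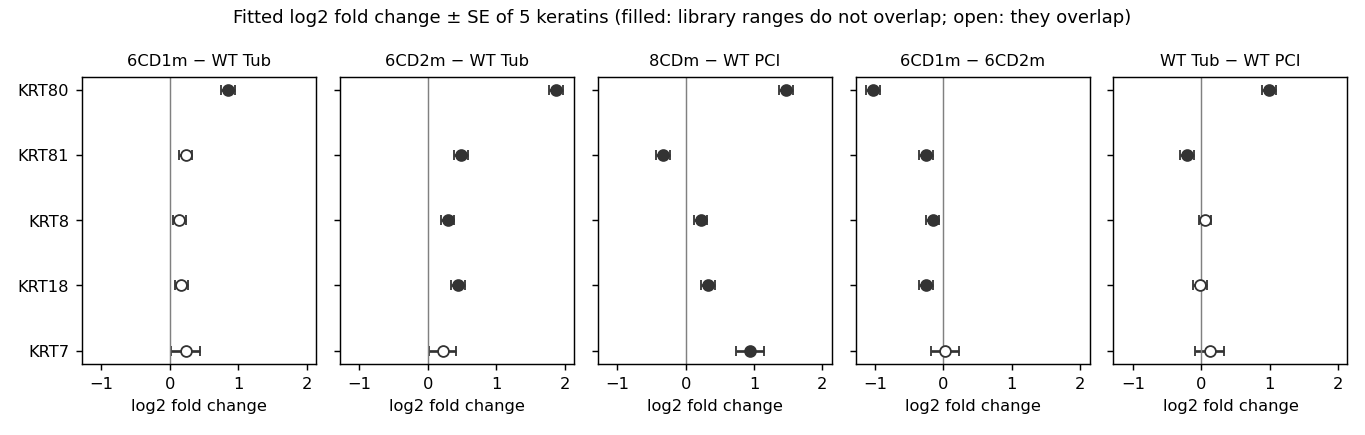
Fitted log2 fold change (horizontal axis) ± SE of 5 keratins (vertical axis) in the 5 comparisons, with the group named first minus the group named second. KRT80 lies farthest from 0 in each panel, between 1.88 in 6CD2m minus WT Tubastatin A and -1.03 in 6CD1m minus 6CD2m. KRT19 is left out because several of its libraries held no count.

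In 6CD1m against the same WT Tubastatin A libraries, KRT80 was 1.80-fold higher (log2 fold change 0.85 ± 0.10 SE). The other keratins overlapped with the WT libraries, with differences of 0.23 ± 0.10 for KRT81, 0.17 ± 0.10 for KRT18, 0.14 ± 0.09 for KRT8 and 0.23 ± 0.21 for KRT7. Only 0.793% of all genes tested passed the threshold here (0.271% higher and 0.522% lower in 6CD1m). Of the 94 listed genes 2 were called. ITGB4 rose from 3.09 ± 0.447 to 9.50 ± 1.65 CPM (log2 fold change 1.62 ± 0.18, edgeR quasi-likelihood test, adjusted p = 9.8e-05) and SYNM fell from 20.04 ± 1.67 to 8.45 ± 0.377 CPM (-1.25 ± 0.10, adjusted p = 5.1e-06). That count was 9 without replicate 1 and 0 without replicate 2 or without replicate 3, and 36 of the 94 had an unadjusted p under 0.05. The median over the listed genes was -0.10, against -0.01 over all genes tested.

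The KDAC6 lines were also compared directly, since 6CD1m and 6CD2m had the same inhibitor, dose and duration. KRT80 was lower in 6CD1m by 1.03 on the log2 scale, that is 2.05-fold lower than in 6CD2m. KRT18 (-0.26 ± 0.10 SE), KRT81 (-0.26 ± 0.10) and KRT8 (-0.16 ± 0.09) were lower without overlap, and KRT7 (0.02 ± 0.20) overlapped. Adding the pseudogenes moved KRT8 to -0.01 and KRT18 to -0.09. Over all refits KRT8 ran from -0.40 to -0.01, KRT18 from -0.51 to -0.09 and KRT81 from -0.56 to -0.19. Of all genes tested 13.2% were called (6.54% higher and 6.65% lower in 6CD1m). Of the 94 listed genes 24 were called, 12 in each direction, with a median of 0.03 against 0.05 over all genes tested. Higher in 6CD1m were LAMA3, at 16.2 ± 1.55 against 1.19 ± 0.0801 CPM (3.76 ± 0.17, adjusted p = 1.5e-09), FN1 at 1205 ± 341 against 425 ± 53.0 CPM (1.5 ± 0.22, adjusted p = 7.8e-05) and TWIST1, a mesenchymal transcription factor (1.49 ± 0.16, adjusted p = 5.1e-06). Lower in 6CD1m were KLF4, at 3.67 ± 1.03 against 27.8 ± 0.581 CPM (-2.93 ± 0.20, adjusted p = 4.9e-08), JUP (-2.60 ± 0.18, adjusted p = 5.6e-08), PRKCZ (-1.95 ± 0.26, adjusted p = 4.4e-05) and SYNM (-1.88 ± 0.10, adjusted p = 6.7e-09). The count of 24 was 5 without replicate 2 or without replicate 3, 13 with only the 6 libraries compared in the fit, and 34 without replicate 1. The comparisons of 6CD1m and 6CD2m share libraries with each other and with the WT comparisons above, so their values are not independent.

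In 8CDm cells on PCI-34051 for 2 days against WT cells on PCI-34051 for 14 days, KRT80 was 2.76-fold higher (log2 fold change 1.47 ± 0.10 SE). KRT7 (0.94 ± 0.20), KRT18 (0.33 ± 0.10) and KRT8 (0.22 ± 0.09) were higher without overlap, and KRT81 was lower (-0.33 ± 0.10) without overlap. With offsets for the GC content of each library the KRT8 difference was 0.51, the KRT18 difference 0.65 and the KRT81 difference 0.04. The sizes of these differences, and the direction for KRT81, thus depended on that setting. Over the refits the KRT7 difference ran from 0.85 to 1.33, and without replicate 1 the KRT8 difference was 0.33. Of all genes tested 11.0% were called (4.69% higher and 6.27% lower in 8CDm).

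Of the 94 listed genes, 20 were called in 8CDm (edgeR quasi-likelihood test), 9 higher and 11 lower, with a median of 0.01 against -0.04 over all genes tested. Desmosome genes again moved both ways, with DSP higher as in 6CD2m and DSG2 and JUP opposite to their direction there. DSP rose from 21.2 ± 3.89 to 100 ± 2.96 CPM (SD, n = 3), a log2 fold change of 2.24 ± 0.13 (adjusted p = 1.5e-08), and DSG2 rose from 63.3 ± 19.4 to 165 ± 11.9 CPM (1.38 ± 0.22, adjusted p = 0.00028). JUP fell from 4.08 ± 0.258 to 1.19 ± 0.225 CPM (-1.77 ± 0.20, adjusted p = 9.3e-06), as did PERP. LAMA3 fell from 31.7 ± 1.34 to 1.59 ± 0.428 CPM (-4.31 ± 0.16, adjusted p = 9.8e-11) and LAMB3 fell by 0.65 (adjusted p = 0.00015). PRKCZ rose from 1.80 ± 0.637 to 14.2 ± 0.495 CPM (2.99 ± 0.26, adjusted p = 7.2e-07), and NEFL, a neuronal intermediate filament gene, rose from 4.17 ± 0.365 to 12.9 ± 1.58 CPM (1.63 ± 0.15, adjusted p = 1.6e-06). SYNC fell from 6.99 ± 0.247 to 2.48 ± 0.520 CPM (-1.49 ± 0.20, adjusted p = 4.9e-05). CEBPB, a transcription factor, fell from 159 ± 18.7 to 58.9 ± 1.36 CPM (-1.43 ± 0.14, adjusted p = 2.8e-06). The count of 20 was 2 without replicate 2, 4 without replicate 3, 38 without replicate 1 and 9 with only the 6 libraries compared in the fit.

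**Figure D4:**
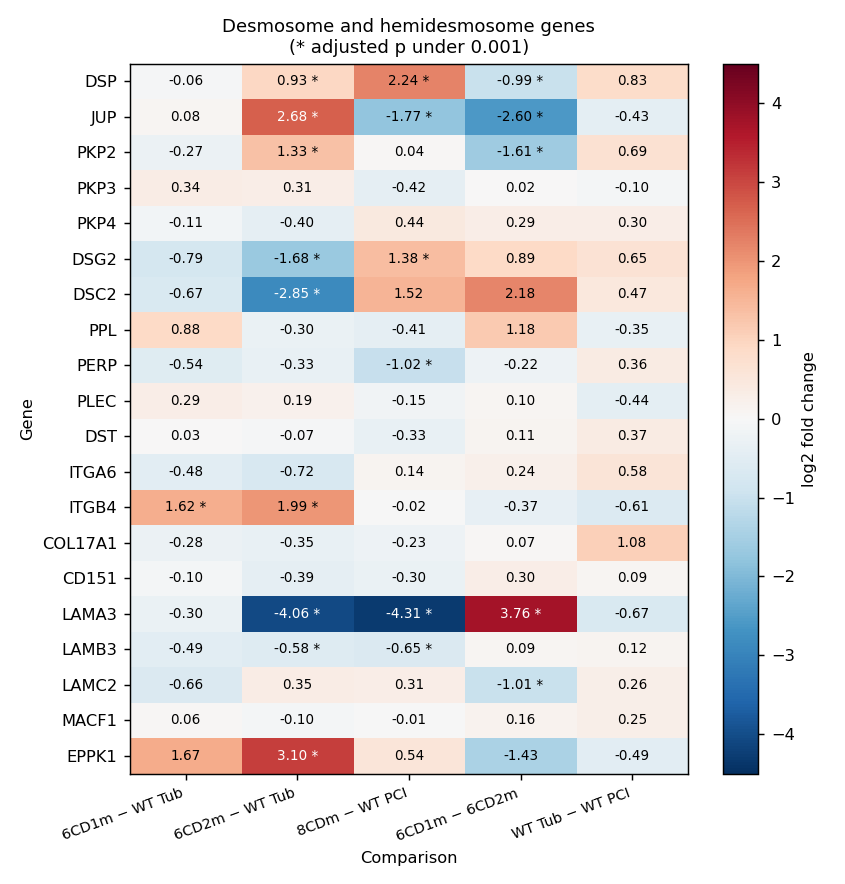
Log2 fold change (colour and printed value) of the 20 tested genes of the desmosome and hemidesmosome lists (rows) in the 5 comparisons (columns), with an asterisk where the adjusted p was under 0.001. LAMA3 is lower in 6CD2m and 8CDm than in WT cells (-4.06 and -4.31), whereas JUP is higher in 6CD2m (2.68) and lower in 8CDm (-1.77).

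The WT groups, both treated for 14 days but at 1 µM Tubastatin A and 5 µM PCI-34051, differed by 1.99-fold in KRT80, which was higher with Tubastatin A (log2 fold change 0.99 ± 0.10 SE). KRT81 was lower with Tubastatin A (-0.21 ± 0.10) without overlap, but 0.03 with GC offsets, while KRT8 (0.05 ± 0.09), KRT18 (-0.02 ± 0.10) and KRT7 (0.12 ± 0.21) overlapped. Of all genes tested 0.42% were called (0.333% higher and 0.087% lower with Tubastatin A). Of the 94 listed genes NEFL was the 1 called, at 9.73 ± 0.685 against 4.17 ± 0.365 CPM (SD, n = 3), a log2 fold change of 1.22 ± 0.15 (edgeR quasi-likelihood test, adjusted p = 0.00039). The labels state no pairing of these WT libraries, and with the replicate block 0 listed genes were called. The NEFL values above come from the fit without that block. The count was 18 without replicate 1, and 38 of the 94 had an unadjusted p under 0.05.

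The KDAC6 CD2 and KDAC8 lines were set against each other by testing the change in 6CD2m minus the change in 8CDm. Each change was taken against WT cells on the same inhibitor. Line, inhibitor and dose differ between these changes, and each change also sets 2 days of treatment against 14 days. The parts of these factors in the difference cannot be told apart. By this test 5.16% of all genes were called (2.51% with the more positive change in 6CD2m and 2.65% with the more negative), and 12 of the 94 listed genes. That count was 1 without replicate 2, 2 without replicate 3 and 22 without replicate 1. JUP (difference 4.45 ± 0.26 on the log2 scale, SE, adjusted p = 1.7e-08), KLF4 (3.3 ± 0.27, adjusted p = 6.1e-07) and ITGB4 (2.01 ± 0.26, adjusted p = 5.3e-05) had the more positive change in 6CD2m. DSC2, DSG2, FN1, KLF5, NEFL, ETS2, ZEB1, DSP and LMNA had the more negative one. Among the 6 keratins the difference was 0.82 ± 0.14 for KRT81, 0.41 ± 0.14 for KRT80, 0.11 ± 0.14 for KRT18, 0.07 ± 0.12 for KRT8 and -0.73 ± 0.29 for KRT7, given as a description. Whether these keratins passed the threshold in the fit over all genes is left out, because they were chosen from these values.

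Most keratin genes were at or near 0. Of the 66 in the table, 34 had no count in any library, 46 had at most 3 counts in every library, and 12 were high enough to be tested. The other 6 tested were KRT10, KRT15, KRT34, KRT79, KRT86 and KRT87P, the last of which is annotated as a pseudogene. KRT15, a type I keratin of basal epithelial cells, read 8.05, 7.55 and 7.90 CPM in 6CD2m, 20.3, 17.6 and 16.8 CPM in 6CD1m, 3.53, 3.25 and 2.90 CPM in 8CDm, 11.8, 12.2 and 13.8 CPM in WT Tubastatin A, and 8.05, 8.03 and 7.53 CPM in WT PCI-34051. Of these 6 other keratins, it alone passed the threshold in any of the 5 comparisons. KRT15 was lower in 6CD2m than in WT Tubastatin A (-0.68 ± 0.12 SE, adjusted p = 0.00059), lower in 8CDm than in WT PCI-34051 (-1.29 ± 0.13, adjusted p = 4.6e-06) and higher in 6CD1m than in 6CD2m (1.22 ± 0.12, adjusted p = 3.3e-06). KRT79, a type II keratin of hair follicles and sebaceous glands, was 14.6 ± 0.835 CPM in 8CDm against 6.51 ± 2.29 CPM in WT PCI-34051 (SD, n = 3), a difference of 1.18 ± 0.31 that did not pass (adjusted p = 0.0078). KRT86 differed by 0.55 ± 0.17 in 6CD2m (adjusted p = 0.022) and by -0.48 ± 0.17 in 8CDm (adjusted p = 0.043), the same signs as KRT81. Reads may be divided between KRT86 and its near copy KRT81, so these signs may not be independent. KRT10, KRT34 and KRT87P stayed under 10 CPM in every library, and none passed in any of the 5 comparisons.

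Of the 6 genes, 5 lie on chromosome 12 in the keratin cluster, where the type II genes and KRT18 sit side by side, and KRT19 lies in the type I cluster on chromosome 17. In GRCh38 coordinates (GENCODE 29), KRT80 is at chr12:52168996-52192000 on the minus strand, KRT7 at chr12:52232520-52252186 (plus), KRT81 at chr12:52285913-52291534 (minus), KRT8 at chr12:52897187-52949954 (minus), KRT18 at chr12:52948871-52952901 (plus) and KRT19 at chr17:41523617-41528308 (minus). The annotated KRT8 and KRT18 genes overlap on opposite strands. Since the strand setting of the counting was not stated, reads from the overlap may have been assigned to either. Within 500 kb of KRT80, 7 other protein-coding genes that are not among the 6 were tested, and 0 to 2 of them were called per comparison. ACVRL1, a receptor of the TGF-beta family, whose start lies 285.1 kb from that of KRT80, was the 1 called in 6CD2m (log2 fold change 2.66 ± 0.37 SE, edgeR quasi-likelihood test, adjusted p = 5.8e-05). In 8CDm it was called with NR4A1 (3.75 ± 0.43, adjusted p = 1.2e-05, and 1.71 ± 0.20, adjusted p = 1.5e-05). ACVRL1 and NR4A1 were picked out with their values known. Over the 737 tested protein-coding genes of chromosome 12, the median change against WT cells was 0.07 on the log2 scale in 6CD2m and 0.10 in 8CDm, where the medians of the autosomes ran from -0.79 to 0.18 and from -0.34 to 0.22.

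**Figure D5:**
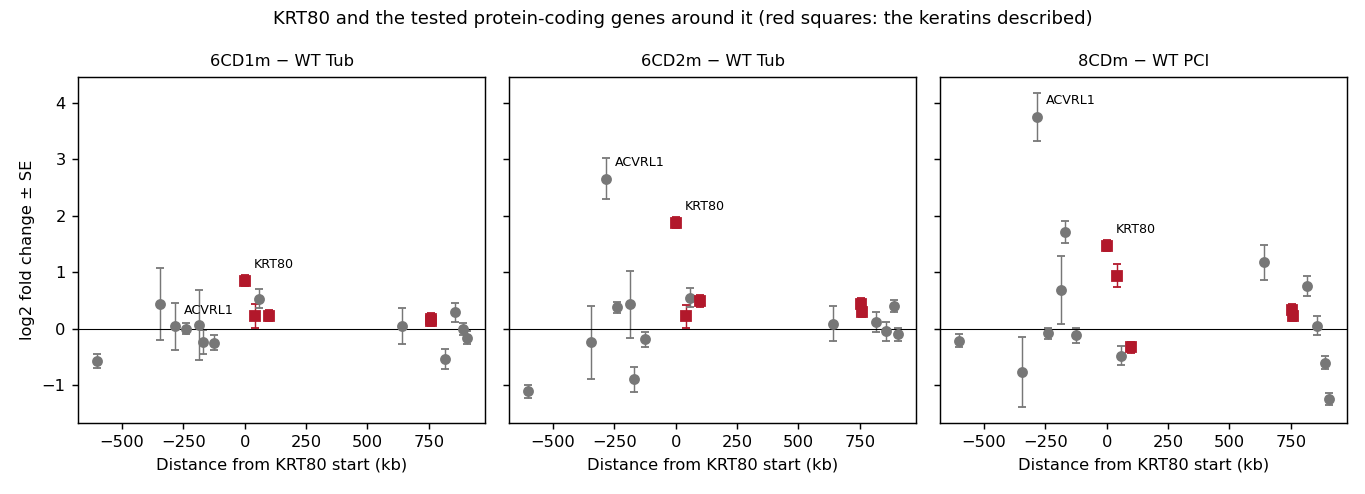
Log2 fold change ± SE (vertical axis) of tested protein-coding genes by the distance of their start from that of KRT80 (horizontal axis, kb), for the 3 mutant lines against WT cells on the same inhibitor. Red squares are the keratins described (KRT80 at 0 kb, KRT7 at 40.5 kb, KRT81 at 99.5 kb, KRT18 and KRT8 at 757 and 758 kb) and grey points are other genes. KRT80 lies above the other keratins in each panel, and ACVRL1 above KRT80 in the 6CD2m and 8CDm panels.

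The genes whose log2 CPM followed each keratin most closely over the 15 libraries were found among 14236 genes with an average log2 CPM of at least 1. For KRT80 they were the long non-coding RNA UCA1 (Pearson r = 0.953), PDIA5 (0.953), DMKN (0.951), C3orf18 (0.948) and LRRC20 (0.948). KRT8 was closest to COLGALT1 (0.951), KRT18 (0.926) and CAV2 (0.921), and KRT18 to RPS6KB1 (0.949), F2R (0.949) and MTUS1 (0.945). KRT7 was closest to FURIN (0.894), SCARNA5 (0.871) and TSSK3 (0.856), and KRT81 to TMEM255B (0.930), SEMA3B (0.917) and KIAA1217 (0.909). None of the 5 genes closest to KRT80 lies on chromosome 12. With 15 libraries in 5 groups such values rest largely on the group means, and they are given as a description.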

How the data were processed

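Ribosomal RNA-depleted total RNA of HT1080 cells was sequenced in 15 libraries. The authors deposited expected counts per gene, and the submitters' processing notes name Trimmomatic 0.39, Bowtie2 2.4.5, RSEM 1.3.3, DESeq2 1.38.2 and GRCh38. RSEM divides reads that fit several genes, so 21.8% of nonzero values were not whole. The strand setting is not given in the sources used here. Groups came from the labels. The labels do not say whether replicates were separate cultures (the study's methods call them biological), so p-values measure the spread between these libraries.

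Counts were rounded and fitted over all 15 libraries with edgeR 4.0.16 (R 4.3.3, limma 3.58.1) by the quasi-likelihood test, after filterByExpr (19535 of 60675 genes) and TMM scaling. Adjusted p-values are Benjamini-Hochberg over all genes tested, with a threshold of 0.001, the study's. DESeq2 1.42.0, other scalings, filters, GC offsets and omitted replicates were alternatives. Gene identifiers of 57055 rows matched GENCODE 29, the source of positions, lengths and coding sequences. Stretches of these sequences are not reported here. The common biological coefficient of variation was 16.4%. Library totals of 10932455 to 19983710 counts set the precision, and KRT19 is limited by them.

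The members and lists were chosen with earlier results of these data known. Members therefore get no p-value, and the counts and p-values of listed genes are not independent of those results. Listed genes are named where among the 4 largest changes per direction past the threshold (groups without overlap, mean log2 CPM 1 or more). VIM, HDAC6, HDAC8, CDH1, EPCAM and tested keratins are always named, as are the 5 genes closest in pattern to KRT80 and the 3 closest to other members (pseudocount 0.1 CPM). Others, such as DSP and OCLN in 6CD2m and GRHL2 in 6CD1m, were named after their values were seen. Deviations from group means of same-numbered libraries correlated in the WT pair (r = 0.505, 0.235 and 0.169 for replicates 1, 2 and 3). Between 6CD1m and 6CD2m the values were 0.189, 0.0276 and 0.057, and between mutant lines and WT cells they were negative. Differently numbered libraries were not compared and the labels state no pairing, so whether the numbers pair any libraries was not settled.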

Additional observations from a re-analysis of the deposited data

Results flagged for a closer look

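The change in 6CD2m and the change in 8CDm, each against WT cells on the same inhibitor, differed for 12 listed genes by the interaction test of the edgeR quasi-likelihood fit over 15 libraries, and for 1, 2 and 22 without replicate 2, 3 and 1 respectively. Differences are on the log2 scale with their SE, as 6CD2m minus 8CDm. Line, inhibitor, dose and the effect of treatment length with each inhibitor cannot be told apart in them.

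Among junction genes, JUP differed by 4.45 ± 0.26 (adjusted p = 1.7e-08), with changes of 2.68 and -1.77. ITGB4 differed by 2.01 ± 0.26 (adjusted p = 5.3e-05), with changes of 1.99 and -0.02. DSC2 differed by -4.38 ± 0.69 (adjusted p = 0.00033), with changes of -2.85 and 1.52, and DSG2 by -3.06 ± 0.32 (adjusted p = 8e-06), with changes of -1.68 and 1.38. DSP differed by -1.31 ± 0.18 (adjusted p = 0.00012), with changes of 0.93 and 2.24.

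Among transcription factors, KLF4 differed by 3.3 ± 0.27 (adjusted p = 6.1e-07), with changes of 2.61 and -0.69. KLF5 differed by -2.08 ± 0.22 (adjusted p = 7.4e-06), with changes of -0.73 and 1.35. ETS2 differed by -1.58 ± 0.16 (adjusted p = 6e-06), with changes of -0.85 and 0.72, and ZEB1 by -1.55 ± 0.25 (adjusted p = 0.0004), with changes of -0.64 and 0.90.

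Among matrix and filament genes, FN1 differed by -2.61 ± 0.30 (adjusted p = 2.2e-05), with changes of -1.51 and 1.1. NEFL differed by -1.65 ± 0.21 (adjusted p = 5.2e-05), with changes of -0.03 and 1.63, and LMNA by -0.83 ± 0.12 (adjusted p = 0.00014), with changes of -0.92 and -0.09.

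KRT81 differed by 0.82, since each 6CD2m library lay above and each 8CDm library below the WT libraries on the same inhibitor (changes of 0.49 and -0.33). The difference is given as a description, with no test, because KRT81 is one of the keratins chosen from measured values. With GC offsets the 8CDm change was 0.04.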

How the results depend on the processing

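Of 315 refitted log2 fold changes of the keratins, 262 moved by less than 1 SD of the replicates and 53 by more. The sign changed or the value reached 0 in 16, namely 7 of KRT7, 4 of KRT81, 3 of KRT18 and 2 of KRT8, and 0 of KRT80. For KRT80 the larger moves were 0.96 with upper-quartile scaling in 6CD1m against WT, and, with GC offsets and with GC offsets and the replicate block alike, 2.03 in 6CD2m, 1.69 in 8CDm and -1.24 in 6CD1m against 6CD2m. Without 1 replicate number at a time the KRT80 difference of the WT pair ran from 0.84 to 1.06.

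The counts of listed genes called moved by over 1.5 times in 38 of 78 refits, and the cause was not tested. In 6CD1m against WT (2 called) they were 19 at a false discovery rate of 0.05, 8 with no filter, 7 with GC offsets, 4 with GC offsets and the replicate block, 0 with only the libraries compared, 11 with DESeq2, and 0 to 9 when replicates were left out. In 6CD2m (27) they were 45 at 0.05 and 3 to 35. In 8CDm (20) they were 46 at 0.05, 9 with only the libraries compared and 2 to 38. In 6CD1m against 6CD2m (24) they were 48, 13 and 5 to 34 in the same order. In the WT pair (1) they were 17 at 0.05, 3 with upper-quartile scaling, 4 with no filter, 2 with at least 10 counts in every library, 0 with the replicate block, 5 with GC offsets, 2 with GC offsets and the block, 0 with only the libraries compared, 8 with DESeq2, and 0 to 18 when replicates were left out. For the interaction (12) they were 30 at 0.05, 19 with DESeq2 and 1 to 22. The higher values came without replicate 1 in each case.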
